A study of Mus musculus with 4 samples.

Results

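The 10 genes described here encode the serine proteases that shed the outermost cells of the skin and the inhibitors that hold those proteases back. They are the kallikreins Klk5, Klk7, Klk8, Klk10 and Klk11, the membrane-anchored proteases St14 (matriptase) and Prss8 (prostasin), and the inhibitors Spink5 (LEKTI), Spint1 (HAI-1) and Spint2 (HAI-2). They were taken by symbol from the deposited table, where all 10 were found among 45803 symbols, on 19 transcript rows that were summed per symbol. RNA was sequenced from epidermal keratinocytes of newborn mice at postnatal day 0 in 4 libraries. Both groups carried Cre recombinase under the keratin 14 promoter, which is active in basal keratinocytes. The 2 cKO libraries have the genotype K14Cre,Mettl14F/F, in which both Mettl14 alleles are floxed, and the 2 control libraries have K14Cre,Mettl14F/+, in which a single allele is floxed and the other is wild type. The Mettl14 protein is part of the complex that writes the m6A mark on RNA. The labels number the libraries 1 and 2 in each group, without saying what the number stands for or whether each library is a separate animal. The p-values therefore measure spread among 4 libraries that may be technical. Wherever a pair of values is given for a group, library 1 comes first.

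Corneocytes, the dead cells of the cornified layer, are held together by corneodesmosomes, and desquamation is the cutting of those junctions by secreted proteases. Klk5, a trypsin-like protease that can activate itself and other kallikreins, and Klk7, a chymotrypsin-like protease, cut the corneodesmosome proteins corneodesmosin, desmoglein 1 and desmocollin 1. Spink5 encodes a secreted inhibitor with many inhibitory domains that blocks kallikreins in the granular and cornified layers, and its loss causes Netherton syndrome, in which the cornified layer detaches. Matriptase and prostasin activate each other and further zymogens at the keratinocyte surface, and both are needed for a working barrier in newborn mice. HAI-1 and HAI-2 are membrane-bound Kunitz inhibitors of matriptase and prostasin.

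The 7 proteases share the chemistry of the serine protease family, in which a serine cuts the peptide bond. The coding stretch around that serine codon is shown to let the reader see how alike and how different the paralogs are at that place. Each run is 27 bases of the most abundant transcript, from GENCODE M21 (GRCm38), 5′ to 3′, and the capitals mark the serine codon.

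Klk5: tgccagggtgatTCCggaggtcctgtg
Klk7: tgcaatggtgacTCAggggggcccttg
Klk8: tgccagggtgacTCAggaggccctctg
Klk10: tgccagagtgacTCCggtggccccctg
Klk11: tgtcagggtgacTCTggaggccccctg
St14: tgccagggtgacTCTggtggccccttg
Prss8: tgccagggtgacTCTgggggcccactc

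Each stretch was found by its coded residues: glycine or serine, then aspartate, serine, glycine and glycine. A serine codon at this place was therefore fixed by the search. The bases of the stretch differ from gene to gene. Over whole transcripts the kallikreins are distinct enough to be counted apart: no 50-base run of Klk5, Klk7, Klk10, Klk11, Spink5, Spint1 or Spint2 occurred in a transcript of another gene. Klk8 was the exception among the kallikreins, since 21.7% of its 50-base runs lie on the opposite strand of the noncoding gene 2310002F09Rik. Prss8 shared 3.8% with the opposite strand of Kat8, and St14 0.4% with several genes. Strandedness is not given in the labels, and Klk8 values may therefore include reads of that antisense gene, from which they cannot be told apart. The partner itself was listed at 2.06 and 1.97 FPKM in the control libraries, against 2.20 and 1.57 in the cKO libraries.

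The 5 kallikrein genes lie on the plus strand of chromosome 7 within 76.6 kb (GRCm38, 43774604 to 43851181), in the order Klk11, Klk10, Klk8, Klk7, Klk5, with Klk9 between Klk10 and Klk8 and Klk6 between Klk7 and Klk5. Prss8 (127925716 to 127930104, minus strand) and Spint2 (29256323 to 29281912, minus strand) are on the same chromosome. St14 is on chromosome 9 (31089402 to 31131853, minus strand), Spint1 on chromosome 2 (119237362 to 119249527, plus strand) and Spink5 on chromosome 18 (43963235 to 44022501, plus strand).

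Values are FPKM (fragments per kilobase of transcript, scaled to sequencing depth), so levels of genes of different length can be set side by side. From the low values, the implied depth was 16891400 to 25685200 reads or fragments per library. At that depth each of the 10 genes rested on 579 (Prss8, control 1) to 34280 (Spink5, control 1) implied reads, with a relative counting error between 0.54% and 4.16%. Every one of the 10 passed the filter on low values (1 FPKM or more in no fewer than 2 libraries), as did 13817 genes in all. Mettl14, the targeted gene, measured 7.00 and 6.40 FPKM in the control libraries, against 5.89 and 3.79 in the cKO libraries, and its most abundant transcript 4.82 and 5.15 against 2.21 and 2.63. Defining keratinocyte markers were abundant, with the basal keratin Krt14 at 1435 to 2550 and the suprabasal keratin Krt10 at 5382 to 15342, while the suprabasal keratin Krt1 was listed at 0 in each library. Markers of other cell types were present too. The summed level of 8 leukocyte markers was 417 and 518 in the control libraries, against 234 and 376 in the cKO libraries, and that of 7 fibroblast markers 400 and 395 against 260 and 283. Of the 8 leukocyte markers, 6 were lower in cKO without overlap (background 16.6% of all genes tested) and 0 higher (background 16.2%). Most of the fibroblast sum was Vim, at 284 and 281 in the control libraries, against 176 and 191 in the cKO libraries. Of the 7, 3 were lower in cKO without overlap (background 16.6% of all genes tested) and 0 higher (background 16.2%). The 5 endothelial markers summed to between 0.57 and 1.72. In bulk RNA, fewer cells of a type and less RNA per cell cannot be told apart.

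Klk7 and Spink5 were the most abundant of the 10 and Prss8 the least. Klk7 averaged 301 FPKM over the 4 libraries, Spink5 237, Klk5 75.4, Klk8 68.0, Spint2 59.6, Spint1 44.4, Klk10 42.9, Klk11 39.6, St14 30.3 and Prss8 20.1. The order of neighbours was not fixed: the range over libraries of each gene overlapped that of the next one down in all cases. In every library Spink5 lay above Klk5, Spint2 above Spint1 and St14 above Prss8, while Klk5 lay above Klk8 in only 2 of the 4.

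**Figure D1:**
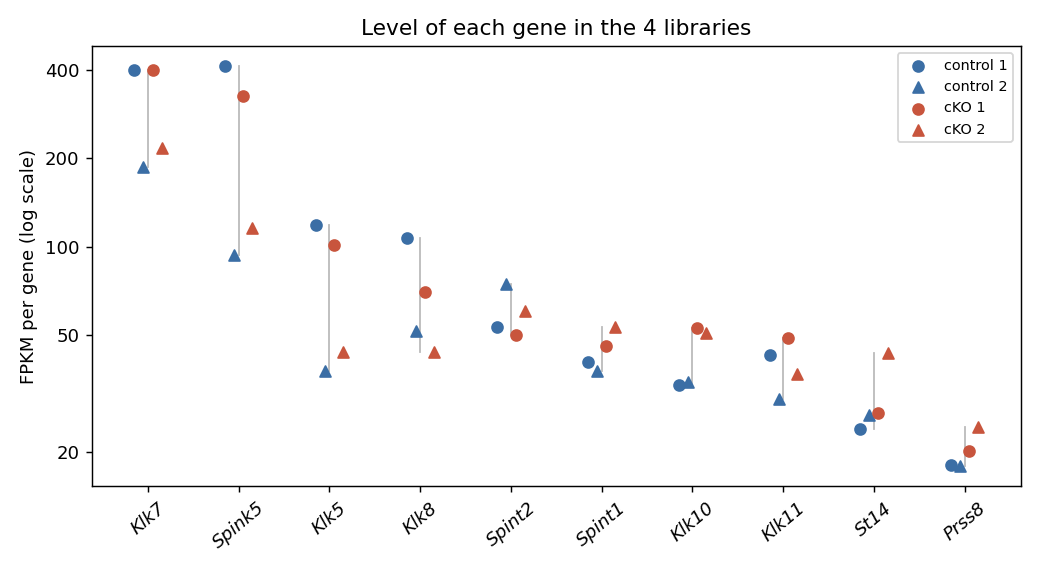
FPKM of each gene (log axis) in control (blue) and cKO (red) libraries, circles for libraries numbered 1 and triangles for those numbered 2, with a grey line from the lowest to the highest library. For Klk7, Spink5, Klk5 and Klk8 the circles stand above the triangles, from 4.42-fold between the extremes for Spink5 to 2.13-fold for Klk7; for Klk10, St14, Prss8 and Spint1 both red symbols stand above both blue ones.

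With genotype as the only term, no member differed between genotypes past the test. Of the 10 members, 0 had an adjusted p under 0.05 with limma over all genes (background 0%, 0 of 13817), with a smallest adjusted p of 0.959. At an unadjusted p under 0.05 there was 1 member, Klk10, where 4.96% of all genes tested passed (686 genes). Both cKO libraries lay above both control libraries for 4 members, Klk10, St14, Prss8 and Spint1 (background 16.2% of all genes tested), and below them for 0 members (background 16.6%). The difference was positive within both library numbers for 5 members (background 31.8%) and negative within both for 2 (background 37.6%). The median log2 difference was 0.168 over the members and -0.034 over all genes tested. Every log2 difference here is on the log2(FPKM + 1) scale, which understates the change of low genes.

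Klk10 was the kallikrein with the clearest separation between genotypes. It encodes a kallikrein made in the granular layer. It measured 33.7 and 34.5 FPKM in the control libraries, against 52.8 and 50.7 in the cKO libraries. Both cKO libraries were higher, and libraries of a group differed by far less than the groups did (34.1 ± 0.559 in control, 51.8 ± 1.46 in cKO, SD, n = 2). The log2 difference was 0.59 ± 0.20 (SE), with 0.63 within number 1 and 0.54 within number 2 (95% interval 0.10 to 1.07). The adjusted p from limma was 0.959. With the replicate number as a further term in limma it was 0.0222, where 6.51% of all genes tested passed. The labels do not say that the number pairs libraries. The difference lay between 0.561 and 0.618 when any 1 library was left out. The leukocyte and fibroblast marker sums were lower in both cKO libraries, the fibroblast sum being mostly Vim. The sum of 4 basal keratinocyte markers was 3654 and 4743 FPKM in the control libraries, against 2310 and 3666 in the cKO libraries. The groups overlapped, with cKO 2 only just above control 1. All 4 basal markers were lower in cKO within both library numbers (background 37.6% of all genes tested), and 1 of them, Krt15, did not overlap (background 16.6%). The part of these cells in the Klk10 difference was not tested.

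The other kallikreins were ordered by library number rather than by genotype. Klk5 measured 119 and 37.8 FPKM in the control libraries, against 101 and 43.7 in the cKO libraries. Library 1 was higher in each genotype, 3.14-fold in control and 2.32-fold in cKO, and the groups overlapped, with a log2 difference of -0.01 ± 0.63 (95% interval -1.57 to 1.55). Klk7 measured 399 and 187 FPKM in the control libraries, against 398 and 218 in the cKO libraries. Libraries 1 of both genotypes were nearly equal and stood above both libraries 2, and the log2 difference was 0.11 ± 0.49 (95% interval -1.11 to 1.32). The interval for Klk5 holds 2-fold changes in either direction, and that for Klk7 a 2-fold rise or fall as well, so these libraries do not show that either gene was unchanged.

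Klk8, also called neuropsin, is a trypsin-like protease that Klk5 can activate. It measured 107 and 51.5 FPKM in the control libraries, against 69.8 and 43.8 in the cKO libraries. Within each number cKO was lower than control (-0.61 within number 1 and -0.23 within number 2), but cKO 1 stood above control 2, so the groups overlapped. Its log2 difference of -0.42 ± 0.42 did not pass (limma, adjusted p = 0.959). Without control replicate 1 it was 0.101, but that fit sets control 2 alone against cKO libraries of both numbers. Klk11, a trypsin-like kallikrein, measured 42.7 and 30.2 FPKM in the control libraries, against 48.7 and 36.8 in the cKO libraries, with a log2 difference of 0.23 ± 0.27. It too was higher in library 1 of each genotype. Without control replicate 2 its log2 difference was -0.013, again with unequal library numbers in the groups. Within numbers 1 and 2 the Klk11 difference was 0.18 and 0.28. Its 2 transcripts had different orders of libraries: the 6-exon form was listed at 35.8 and 23.7 in the control libraries, against 40.01 and 33.2 in the cKO libraries, the 5-exon form at 6.93 and 6.44 against 8.65 and 3.64. How the authors divided reads between transcripts is not given in the sources used here.

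**Figure D2:**
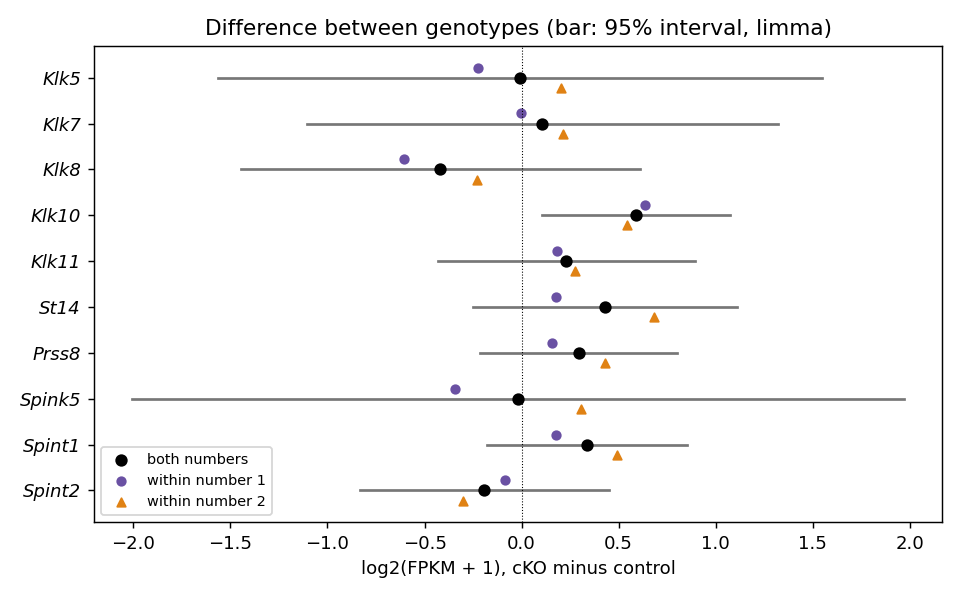
Log2 difference between cKO and control for each gene (black point, 95% interval from limma as a grey bar), with the difference within libraries numbered 1 (purple circle) and within those numbered 2 (orange triangle). The interval of Klk10 (0.10 to 1.07) lies above 0, the 9 others hold 0, and the widest is that of Spink5. Each interval is for a single gene, without adjustment over all genes tested, and the adjusted p of Klk10 was 0.959 (limma).

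The membrane-anchored pair stood higher in both cKO libraries, without passing the test. St14, the protease at the head of the surface cascade, measured 23.9 and 26.6 FPKM in the control libraries, against 27.1 and 43.4 in the cKO libraries. The groups did not overlap, but cKO 1 lay only just above control 2, and most of the difference came from cKO 2: the log2 difference of 0.43 ± 0.28 (limma adjusted p = 0.959) was 0.101 without cKO replicate 2 and was 0.759 without cKO replicate 1. Prss8, its partner, measured 18.0 and 17.8 FPKM in the control libraries, against 20.2 and 24.4 in the cKO libraries. Again cKO 2 was the highest library, and the log2 difference was 0.29 ± 0.20 (limma adjusted p = 0.959), with 0.165 without cKO replicate 2. The ratio of Prss8 to St14 was 0.752 and 0.670 in the control libraries, against 0.745 and 0.562 in the cKO libraries.

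The 2 membrane inhibitors had opposite signs of difference, and neither passed the test. Spint1, the inhibitor that binds matriptase, measured 40.5 and 37.6 FPKM in the control libraries, against 46.0 and 53.3 in the cKO libraries. Both cKO libraries were higher, with a log2 difference of 0.34 ± 0.21 (limma adjusted p = 0.959). Spint2 measured 53.1 and 74.8 FPKM in the control libraries, against 50.04 and 60.5 in the cKO libraries. It was lower in the cKO library of each number, with log2 differences of -0.08 within number 1 and -0.30 within number 2, but the groups overlapped and its log2 difference was -0.19 ± 0.26. The ratio of Spint1 to Spint2 was therefore 0.763 and 0.503 in the control libraries, against 0.919 and 0.881 in the cKO libraries, higher in both cKO libraries. Control 1 lay nearer to both cKO libraries than to control 2. The ratio sets a gene with a positive difference over one with a negative difference, and it was not tested. The ratio of St14 to Spint1 was 0.590 and 0.708 in the control libraries, against 0.590 and 0.813 in the cKO libraries, overlapping between the groups.

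Spint1 had 5 listed transcripts, and the higher level in cKO lay mostly in the most abundant one. That form, of 11 exons, was listed at 22.9 and 23.2 FPKM in the control libraries, against 30.7 and 34.01 in the cKO libraries. Another 11-exon form was low and also higher in both cKO libraries, at 0 and 0.36 against 1.03 and 2.16. The retained-intron forms were close to or under the filter on low values (1 FPKM), where few reads support a value. They were listed at 0.82 and 0.92 against 0.27 and 0.78, and at 1.08 and 0.74 against 0.69 and 0.24. Both cKO libraries were lower, for the first form only just. The share of all transcripts that separate in this way was not computed. The 10-exon form was listed at 15.7 and 12.3 against 13.3 and 16.2, overlapping between the groups. For St14, the 19-exon coding form carried the values of the gene, at 21.4 and 24.6 FPKM in the control libraries, against 24.4 and 41.0 in the cKO libraries. A St14 transcript annotated as a target of nonsense-mediated decay was listed at 0.81 and 0.75 in the control libraries, against 1.75 and 1.45 in the cKO libraries, close to the filter on low values.

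Spink5 varied more between libraries than any other member. It measured 413 and 93.3 FPKM in the control libraries, against 325 and 116 in the cKO libraries. Library 1 stood 4.42-fold above library 2 in control and 2.81-fold in cKO, against a genotype difference of -0.02 ± 0.80 on the log2 scale (95% interval -2.01 to 1.97). The sign of the genotype difference was opposite in the 2 pairs, -0.34 within number 1 and 0.31 within number 2. The interval is wide enough to hold a 2-fold change in either direction.

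By library number, 4 members stood apart, Klk5, Klk7, Klk8 and Spink5. Each was at least 1.5-fold higher in library 1 than in library 2 in both genotypes (background 8.67% of all genes tested). These 4 were also the members whose highest library was at least 2-fold above the lowest (background 28.3%). Of these, Klk5, Klk7 and Spink5 had the same order of libraries, control 1, cKO 1, cKO 2 and control 2 from high to low (background 2.69%). With Klk11, 5 members had both libraries numbered 1 above both numbered 2 (background 24.6%), and 1, Spint2, had both below (background 32.8%). Klk10, St14, Prss8 and Spint1 showed neither.

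Of the 7 suprabasal and granular markers tested, 5 had both libraries numbered 1 above both numbered 2 (background 24.6% of all genes tested). These were Krt10, Flg, Ivl, Tgm1 and Sbsn. Lor, loricrin of the cornified envelope, was higher in library 2, at 105 and 134 FPKM in the control libraries, against 125 and 128 in the cKO libraries, and Tgm3 had no common direction. The summed level of the 8 markers on the list, Krt1 included, was 21545 and 8811 FPKM in the control libraries, against 17293 and 9048 in the cKO libraries. Most of that sum was Krt10, the keratin of suprabasal cells, at 15342 and 5382 in the control libraries, against 12142 and 6217 in the cKO libraries. Of the 7 tested, 1, Tgm3, was higher in cKO without overlap (background 16.2% of all genes tested), and 0 were lower (background 16.6%). Tgm3, an enzyme that joins proteins of the cornified envelope, measured 49.9 and 47.9 in the control libraries, against 112 and 123 in the cKO libraries. Its log2 difference was 1.25 ± 0.21 (limma adjusted p = 0.959), and it was named after its values were seen. Krt10, named here after its values were seen, had the library order of Klk5, Klk7 and Spink5. Hair follicle markers as a sum were higher in libraries 2. Of 8, 0 had both libraries numbered 1 above both numbered 2 (background 24.6%). The summed level of the 8 was 1240 and 1467 in the control libraries, against 1055 and 1459 in the cKO libraries. Krt71, a keratin of the inner root sheath of the hair follicle, measured 45.8 and 133 in the control libraries, against 63.1 and 213 in the cKO libraries, and Krt25, Krt27 and Krt28 of the same sheath also stood higher in both libraries 2. These 4 were named after their values were seen, and 32.8% of all genes tested had both libraries 2 above both libraries 1. The part of differentiated and hair follicle cells in the values of the proteases and inhibitors was not tested.

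**Figure D3:**
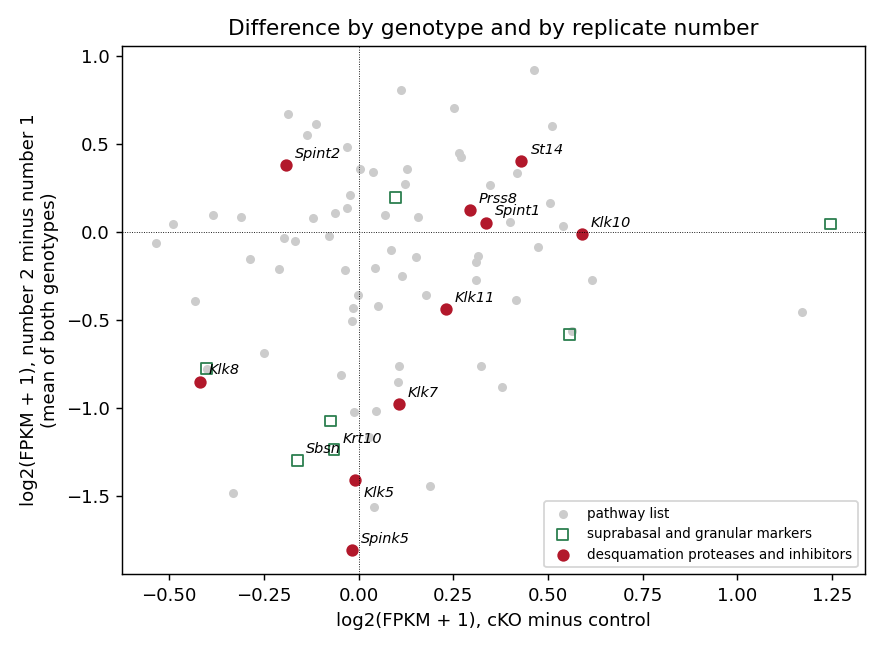
Each point is a gene, placed by its log2 difference between genotypes (horizontal) and between libraries numbered 2 and 1 (vertical, mean of both genotypes), with the 10 proteases and inhibitors as red circles, suprabasal and granular markers as green squares and the other desquamation genes as grey points. Spink5, Klk5 and Klk7 lie far down near Krt10 and Sbsn and close to 0 across, while Klk10 lies near 0 down and at 0.59 across.

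The balance of proteases and inhibitor followed the library number too. The 5 kallikreins summed to 701 and 341 FPKM in the control libraries, against 671 and 393 in the cKO libraries, and Klk7 made up 54.9% to 59.4% of that sum. The sum was 1.70 and 3.66 times the level of Spink5 in control and 2.06 and 3.40 times in cKO, so both libraries numbered 2 had more kallikrein RNA per Spink5 RNA. The ratio of Klk5 to Spink5 ran from 0.288 (control 1) to 0.405 (control 2), and that of Klk7 to Spink5 from 0.967 (control 1) to 2.01 (control 2), with both cKO libraries inside that range in each case. RNA ratios say nothing of the amount of active protein.

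Along the array on chromosome 7, adjacent kallikreins did not all share a pattern. Klk9, between Klk10 and Klk8, measured 5.78 and 6.08 FPKM in the control libraries, against 5.30 and 6.30 in the cKO libraries, and Klk6, between Klk7 and Klk5, 16.4 and 15.5 against 17.8 and 16.2. Klk6 had both libraries 1 above both libraries 2, by 1.06-fold in control and 1.10-fold in cKO, while its neighbours Klk7 and Klk5 were at least 1.5-fold higher in library 1. Klk9 was lower in library 1 of each genotype, and for both Klk6 and Klk9 the genotypes overlapped. Klk13 measured 20.8 and 12.5 in the control libraries, against 18.0 and 14.2 in the cKO libraries, higher in libraries 1. Klk1, Klk4, Klk12, Klk14 and Klk15 stayed under 1 FPKM in every library.

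**Figure D4:**
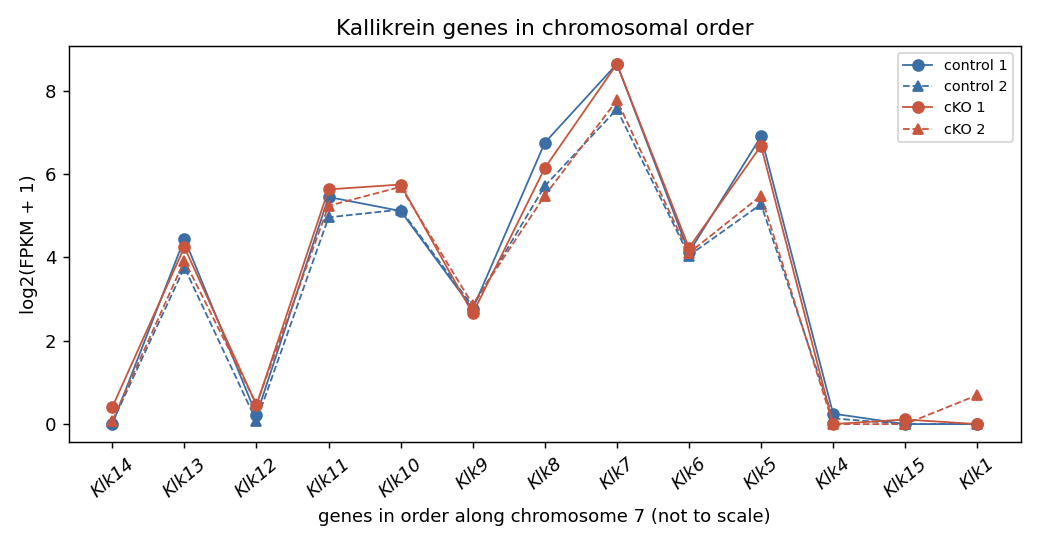
Log2(FPKM + 1) of 13 kallikrein genes in their order along chromosome 7 (not to scale), control in blue and cKO in red, number 1 as solid lines with circles and number 2 as dashed lines with triangles. The solid and dashed lines part at Klk8, Klk7, Klk5, Klk11 and Klk13 and nearly meet at Klk9 and Klk6, and at Klk10 the 2 red symbols stand above the 2 blue ones.

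Promoters are shown for Klk5 and Klk7, which followed the library number together, and for Klk10, which lies in the same array and did not. Each window runs from 250 bases before the RefSeq start to 50 after it (GRCm38.p6, plus strand): Klk5 at chr7:43842019-43842318, Klk7 at chr7:43811044-43811343 and Klk10 at chr7:43780804-43781103. The GENCODE M21 starts of Klk7 (43811294) and Klk10 (43781035) lie within their windows. For Klk5 the annotations disagree: its GENCODE start (43841971) lies before the window, which is wholly inside that gene. The bases before the GENCODE start of Klk5 were not searched. Both strands were searched for 5 motifs of factors active in epidermis or general to promoters: AP-1 (TGANTCA), C/EBP (TTGCNNAA), Grainyhead-like (AACNGGTT), the GC box (GGGCGG) and the TATA box (TATAAA). Capitals mark a match.

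Klk5: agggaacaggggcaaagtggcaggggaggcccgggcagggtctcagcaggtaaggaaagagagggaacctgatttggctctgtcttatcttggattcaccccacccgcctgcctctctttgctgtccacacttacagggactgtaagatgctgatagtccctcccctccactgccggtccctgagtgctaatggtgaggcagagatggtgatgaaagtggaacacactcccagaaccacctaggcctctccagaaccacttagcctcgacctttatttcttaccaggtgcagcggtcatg
Klk7: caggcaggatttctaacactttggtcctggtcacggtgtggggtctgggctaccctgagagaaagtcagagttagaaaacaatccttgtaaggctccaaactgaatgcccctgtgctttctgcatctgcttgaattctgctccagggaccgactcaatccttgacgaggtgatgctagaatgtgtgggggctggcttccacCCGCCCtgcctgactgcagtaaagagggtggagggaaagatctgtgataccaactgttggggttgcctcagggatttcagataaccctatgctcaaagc
Klk10: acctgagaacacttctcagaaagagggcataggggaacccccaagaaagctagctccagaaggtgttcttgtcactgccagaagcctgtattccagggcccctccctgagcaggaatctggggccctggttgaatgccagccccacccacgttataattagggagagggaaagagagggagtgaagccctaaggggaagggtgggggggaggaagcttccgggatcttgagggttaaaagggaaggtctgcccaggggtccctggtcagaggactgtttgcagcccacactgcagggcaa

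Among these 3 windows the only match was a GC box in Klk7, 49 bases before the start, a motif that 35.7% of 32851 promoters of this length hold. Windows of 7 members were searched in all, and none of Spink5, St14 or Prss8. Klk8 also held a GC box, and Spint1 and Spint2 held 3 each. Klk11 held a C/EBP match in each of its 2 windows (10.8% of all promoters). Spint1 held an AP-1 match 6 bases before its start (7.8% of all promoters). A match describes letters only, and no match says only that these letters are not in this window.

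The other genes of desquamation were taken from lists of 89 genes, of which 67 passed the filter on low values. Of these, 0 passed limma's test in either direction with genotype as the only term (background 0%). Slpi, Mst1r and Tmprss11f, 3 of the 67, had an unadjusted p under 0.05, where 4.96% of all genes tested passed. Both cKO libraries lay above both controls for 14 of the 67 (20.9%, background 16.2%) and below for 10 (14.9%, background 16.6%), and the median log2 difference was 0.05.

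Among desmosome and corneodesmosome genes, the 11 tested had a median log2 difference of 0.10. Of these, 1 of 11 was higher in both cKO libraries (background 16.2%) and 0 were lower (background 16.6%). This list is wider than the proteins named above as cut by Klk5 and Klk7. Dsp, the plaque protein desmoplakin, measured 738 and 682 FPKM in the control libraries, against 810 and 660 in the cKO libraries, and Pkp1, plakophilin 1, 424 and 585 against 475 and 551. Dsc2, a desmocollin, was the 1 without overlap, at 5.02 and 4.59 against 6.82 and 5.62, and Dsg1b, a desmoglein 1 gene, measured 172 and 92.6 against 223 and 121. Genes of the direct substrates of Klk5 and Klk7 that passed the filter had both libraries 1 above both libraries 2 (background 24.6% of all genes tested). Cdsn, corneodesmosin, was at 94.2 and 47.0 in the control libraries, against 92.2 and 55.6 in the cKO libraries, and Dsc1, desmocollin 1, at 607 and 196 against 611 and 254. Dsg1a, a further desmoglein 1 gene, was at 428 and 290 against 615 and 315, and Dsg1b is given above. Dsg1c did not pass the filter. Cdsn, Dsc1 and Dsg1a were named after their values were seen.

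Other proteases of the cornified layer had 3 of 10 members higher in both cKO libraries (background 16.2%) and 1 lower (background 16.6%), with a median of 0.13. Ctsc, cathepsin C, measured 110 and 114 FPKM in the control libraries, against 163 and 164 in the cKO libraries, a log2 difference of 0.54 ± 0.23 (limma adjusted p = 0.959). Asprv1, the protease SASPase that processes filaggrin, measured 584 and 558 against 708 and 929, and Ctsh, cathepsin H, 36.5 and 42.3 against 44.8 and 56.3. Ctsd, cathepsin D, overlapped between the groups at 425 and 304 against 442 and 375.

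Among the 13 other serine proteases tested, 3 were higher (background 16.2%) and 3 lower (background 16.6%) in both cKO libraries. Tmprss13, a membrane-anchored protease, measured 25.6 and 32.6 FPKM in the control libraries, against 34.7 and 43.9 in the cKO libraries, and Tmprss4 142 and 139 against 170 and 143. Tmprss11f measured 14.6 and 14.5 against 9.68 and 10.46 (log2 difference -0.49 ± 0.20, limma adjusted p = 0.959), and Plau, urokinase, 40.3 and 37.6 against 33.4 and 34.2.

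Of the 16 other inhibitors tested, 3 were higher (background 16.2%) and 1 lower (background 16.6%) in both cKO libraries, with a median of 0.08. Slpi, a secreted inhibitor of leukocyte and kallikrein proteases, was low, at 0.99 and 0.63 FPKM in the control libraries, against 4.04 and 2.26 in the cKO libraries (log2 difference 1.17 ± 0.31, limma adjusted p = 0.959). Serpinb1a measured 4.80 and 3.14 against 6.67 and 6.35, and Serpinb12 299 and 283 against 387 and 338. Serpinb5, maspin, overlapped at 468 and 456 against 587 and 426.

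Of the 14 genes tested that act downstream of the proteases, 4 were higher (background 16.2%) and 5 lower (background 16.6%) in both cKO libraries, with a median of -0.05. Subunits of the epithelial sodium channel, which prostasin activates, were among the higher: Scnn1b measured 4.61 and 5.32 FPKM in the control libraries, against 8.33 and 6.32 in the cKO libraries (log2 difference 0.47 ± 0.23, limma adjusted p = 0.959). Mst1r, the receptor for a growth factor that matriptase can activate, was among the lower, at 10.5 and 10.4 against 7.25 and 6.59 (log2 difference -0.53 ± 0.20, limma adjusted p = 0.959). Flg, whose product profilaggrin is processed less when prostasin is missing, measured 4128 and 2455 against 3187 and 1822, and Flg2 597 and 368 against 358 and 337. Flg2 did not overlap between the groups, though control 2 and cKO 1 were close.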

How the data were processed

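The authors deposited 1 table of 110295 transcripts whose header names no unit. They were read as FPKM (RPKM cannot be told apart) because the authors' values times transcript length over 1000 summed to 1015550 to 1021998 in each library. The submitters' processing notes list fastp, HISAT2, HTSeq and GRCm38, with no role or version. The control columns are named WT and were matched by group and number. In 162 rows a symbol had become a date and was looked up by transcript ID in GENCODE M21. Implied depths came from low values of transcripts of 300 to 1000 nt, of which 94.4% to 95.2% were whole reads within 0.2.

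FPKM were summed per symbol. Genes with at least 1 FPKM in 2 libraries (13817) were tested on log2(FPKM + 1) with limma 3.58.1 (trend, genotype as the only term, two-sided, Benjamini-Hochberg over all genes at 0.05) in R 4.3.3, after a check on simulated data. With 2 libraries against 2, an exact permutation test of a single gene cannot go below p = 0.333. The design allowed for counts with another test, and the limma form for normalized values was used. Members and lists were chosen with earlier results of these data known. Of each other list the 2 most abundant genes and the 2 with the smallest p were to be named. Kallikreins that failed the filter are given as levels only. Alternatives were other scaling, pseudocount, filters, limma-voom on recovered reads, no trend, a replicate term, the most abundant transcript alone and leaving out each library. Counting errors cover counting error only. Python 3.11.15 with numpy 2.4.6, pandas 2.3.3 and matplotlib 3.10.9 was used.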

Additional observations from a re-analysis of the deposited data

How the results depend on the processing

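With 2 libraries a group, intervals are wide, and leaving out a library leaves a lone library whose spread is borrowed from the other group. Over 13 alternatives for the members and 12 for the other desquamation genes (53 to 84 tested, by the setting), 0 passed, except with the replicate number as a term. The replicate block gave 900 genes past the threshold (6.51%), 1 member and 3 other genes. The member was Klk10 (0.589, adjusted p = 0.0222), and the others were Ctsc, Slpi and Serpinb2. The labels do not say that the number pairs libraries; across genes, the difference between libraries 1 and 2 in control correlated with that in cKO at r = 0.722. Leaving out 1 library gave 9 to 71 genes past the threshold over all genes, and 0 members. Of 130 member values under alternatives, 118 kept their direction and side of the threshold and 11 reversed. Under median-ratio scaling Klk5 went to 0.027 and Spink5 to 0.019. When a library was left out, the log2 difference ran from -0.823 to 0.804 for Klk5, -0.437 to 0.649 for Klk7, -0.938 to 0.101 for Klk8, -0.013 to 0.475 for Klk11, -1.085 to 1.049 for Spink5 and -0.435 to 0.052 for Spint2. The values opposite in sign to the full fit came without control replicate 1 (Klk5, Klk8, Spink5), without control replicate 2 (Klk7, Klk11, Spint2), without cKO replicate 1 (Klk7) and without cKO replicate 2 (Klk5, Spink5). These fits compare unequal numbers of libraries 1 and 2. Klk10, St14, Prss8 and Spint1 stayed above 0 in all alternatives.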
